A study of Mus musculus with 10 samples.

Results

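The comparison described here is that of mouse macrophages given medium from cancer-associated fibroblasts (CAF) that carry Snail1 with macrophages given medium from CAF that lack it. It rests on 4 of the 10 arrays of the study and on all 22206 probe sets of each. The titles of 2 arrays name the wild-type (WT) CAF medium and those of 2 name the knockout (KO) CAF medium. Bone marrow from male C57Bl/6J mice of 8 to 12 weeks had been cultured for 7 days with 25% L929 cell medium, a source of the growth factor M-CSF, and the macrophages obtained were treated for 48 h. The treatments were conditioned medium (CM) of CAF kept without serum for 24 h, either Snai1 WT or Snai1 KO. The other treatments were IL4 (10 ng/mL), IFNγ (100 units/mL) or ordinary medium (not stimulated), each on 2 arrays. The CAF lines came from mammary tumours of PyMT mice, in which a viral oncogene is driven in the mammary epithelium, and their number per genotype was not given in the sources used here. The titles and the methods attach WT and KO to the CAF, whereas the sample descriptions attach them to the macrophages. By the methods, the not stimulated macrophages had complete medium, which holds serum. No array of serum-free medium without CAF was analysed here. In differences from not stimulated macrophages, CAF factors and serum therefore cannot be told apart. The words raised and lowered below give the direction alone. Whether both arrays of a treatment stem from different mice or dishes is not in the labels, and the p-values therefore cover the variation among these arrays alone, which may be technical.

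Snail1 is a transcription factor, both repressor and activator, that fibroblasts in tumours switch on when they become activated, and it alters what they secrete. Macrophages read such secreted factors through surface receptors and adjust genes of migration, clearance of dead cells, inflammation and protection from oxidants. Not stimulated macrophages give a level to set each medium against, although their own medium held serum. A gene higher after WT CAF CM may lie above that level with this medium. It may also lie below that level with KO CAF CM, or apart from it with both to a different extent.

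All values are log2 signals, on which 1 unit is a doubling, and levels of different genes cannot be compared because each probe set has its own brightness. The 10 arrays had median signals between 5.57 and 5.71, and Pearson's r within a pair of replicate arrays, over all probe sets, lay between 0.9936 and 0.9952. Between the arrays of WT CAF CM 39 probe sets lay more than 4-fold apart, against 6 to 14 in the other conditions. Snai1 itself was dim in the macrophages (4.93 and 4.41 with WT, 4.13 and 4.72 with KO CAF CM and 4.27 and 4.62 without stimulation (difference 0.24 ± 0.24, adjusted p = 0.84)), so it cannot check labels that concern the CAF. Defining macrophage genes were bright in all 4 CAF CM arrays, where 15 of 18 macrophage markers measured stayed above 10, among them Csf1r (17.24 and 17.28 with WT, 17.15 and 17.10 with KO CAF CM and 17.23 and 17.27 without stimulation). Over the 18 the mean signal was lower with KO CAF CM, at 14.30 to 14.42, than with WT CAF CM (14.84 to 14.87) or without stimulation (15.05 to 15.06). Between the media 3 of them were higher (Mrc1, Mertk and Cd163) and 1 lower (Cx3cr1) with WT CAF CM. That is 22.2% called, against 1.44% of all genes. This list and those below were written with earlier results of these data known, so their shares are a description and no support. Of the 18, 15 had a positive difference (median 0.41, against -0.01 over all genes). Against not stimulated macrophages, 8 were called lower and 2 higher with KO CAF CM, and 3 lower and 3 higher with WT CAF CM. Of all probe sets, 8.0% were lower and 6.83% higher with KO CAF CM, and 4.47% and 4.08% with WT CAF CM. Cd163 was dim and read 5.30 and 5.99 with WT, 4.39 and 4.47 with KO CAF CM and 5.06 and 4.85 without stimulation (difference 1.22 ± 0.25, adjusted p = 0.039). Cd163 lost its call without WT CAF CM array 2, either KO CAF CM array, either not stimulated array or either IFNγ array (adjusted p = 0.059 to 0.25). Genes described below as lowest with KO CAF CM moved in the same direction, and the part of this shift in them was not tested. Fibroblast markers did not accompany the media: none of the 18 measured was called between WT and KO CAF CM, and 14 of them stayed below 6 on all 4 CAF CM arrays.

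Of the 22206 probe sets, 302 (1.36%) were called between WT and KO CAF CM by limma at an adjusted p under 0.05, 154 higher (0.694%) and 148 lower (0.666%) with WT CAF CM. In all 302 the arrays of the 2 media did not overlap, as was so for 37.1% of all probe sets. The genes shown in the published figures of the study account for 44 of these calls, and 20 belong to probe sets without a gene symbol. The remaining 238 calls, 121 higher and 117 lower, concern 237 genes that those figures do not list, out of 19490 probe sets of such genes (1.22%), and they are the subject of what follows. Their differences ranged from 0.80 to 2.44 among the higher genes (median 1.28) and from -2.35 to -0.86 among the lower ones (median -1.39), and 215 of the 238 were at least 2-fold. For scale, the figure genes Thbs1 (13.51 and 13.46 with WT, 8.68 and 7.58 with KO CAF CM and 8.12 and 7.33 without stimulation (difference 5.36 ± 0.41, adjusted p = 9.2e-05)), a secreted matrix protein, and Myc (10.34 and 8.93 with WT, 12.80 and 12.77 with KO CAF CM and 10.86 and 11.72 without stimulation (difference -3.15 ± 0.39, adjusted p = 0.0023)), a growth-promoting transcription factor, differed by more. In the paper's PCR, after a shorter treatment, WT and KO CAF CM did not differ in their effect on Myc. Why the arrays differ from that PCR was not tested. Nrg1, a ligand of ErbB receptors, and Cd33, an inhibitory sialic acid receptor, were higher with WT CAF CM by 4.22 and 3.82 (adjusted p = 4.7e-05 and 3.6e-05). In whole cultures such as these, fewer cells of a type and less RNA per cell cannot be told apart.

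For most of the 238 genes the not stimulated macrophages lay nearer to WT than to KO CAF CM. The mean with KO CAF CM was farther from the not stimulated mean for 185 of them (77.7%), and for 12926 of all 22206 probe sets (58.2%). The median distance from the not stimulated mean was 1.75 for KO CAF CM but 0.88 for WT CAF CM. Over all probe sets these medians were 0.25 and 0.22. Of all probe sets, 1900 (8.56%) were called between WT CAF CM and not stimulated macrophages, 4.08% higher and 4.47% lower. For KO CAF CM the number was 3292 (14.8%), 6.83% higher and 8.0% lower. These comparisons share arrays, so the places below are a description. When each WT CAF CM array was taken alone, the KO mean was farther for 189 and 183 of the 238 (79.4% and 76.9%). Over all probe sets it was farther for 54.8% with array 1 alone and for 51.4% with array 2 alone. The share given next, for calls made without array 1, was near that 51.4%. After WT CAF CM array 1 was left out and the calls were made again, however, the count was 72 of 136 genes (52.9%). It was 110 of 126 (87.3%) without WT CAF CM array 2, 84 of 104 (80.8%) without KO CAF CM array 1 and 78 of 93 (83.9%) without KO CAF CM array 2.

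Among the 121 genes higher with WT CAF CM, 47 were called below not stimulated macrophages with KO CAF CM alone and 45 with both media (4.18% and 3.8% of all probe sets). By contrast, 13 were called above it with WT CAF CM alone and 8 with both media (0.599% and 3.47% of all), and 8 were called with neither (83.9% of all). Among the 117 lower genes, 45 were called above not stimulated macrophages with KO CAF CM alone (3.35% of all) and 41 with both media. A further 18 were called below it with WT CAF CM alone (0.662% of all), 3 with both media, 2 lay on opposite sides, and 8 were called with neither. Places set by KO CAF CM alone outnumbered those set by WT CAF CM alone among these genes, and by a wider margin over all probe sets, as the shares beside them show. Both not stimulated arrays read above all 4 CAF CM arrays for 61 of the higher genes (17.1% of all probe sets) and below all 4 for 64 of the lower ones (14.6% of all). They fell between the 2 media for 18 genes in each direction.

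**Figure D1:**
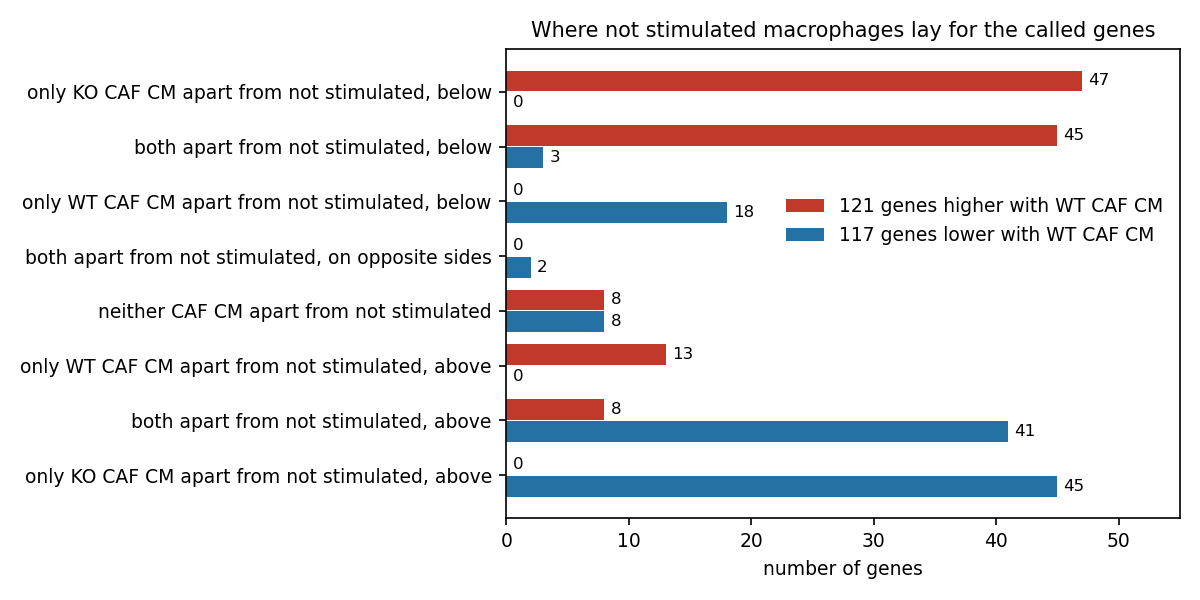
Bars give the number of genes in each place relative to not stimulated macrophages, for 121 genes higher (red) and 117 lower (blue) with WT than with KO CAF CM. Apart means an adjusted p under 0.05 against not stimulated. The longest red bar holds 47 genes called below, and the longest blue bar 45 called above, with KO CAF CM alone.

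**Figure D2:**
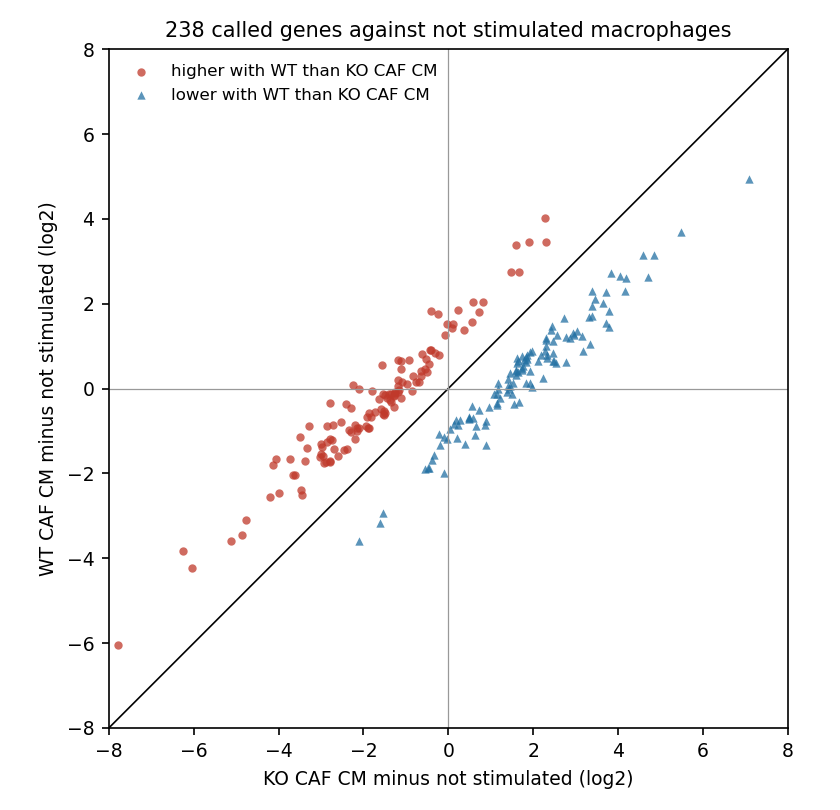
Each point is 1 of 238 genes, placed by the log2 difference of KO CAF CM (horizontal) and of WT CAF CM (vertical) from not stimulated macrophages. The axes share the not stimulated arrays. The gap to the diagonal is the difference between the media, and most points lie farther from 0 along the horizontal than along the vertical axis. The median distance is 1.75 against 0.88, and 0.25 against 0.22 over all probe sets.

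Calls depended on single arrays. Of the 238, 43 genes (17 higher, 26 lower) kept their call when any 1 of the 10 arrays was left out, and for 35 of these 43 the mean with KO CAF CM was the farther one from not stimulated macrophages. Over all probe sets the mean with KO CAF CM was the farther one for 58.2%. In Nfix and Dgka, among those 43 genes, not stimulated macrophages were highest and KO CAF CM lowest. Nfix, a nuclear factor I transcription factor, read 9.59 and 9.42 with WT, 7.10 and 7.11 with KO CAF CM and 10.51 and 10.25 without stimulation. Nfix differed by 2.40 ± 0.19 (adjusted p = 0.00012). Dgka, a kinase that consumes diacylglycerol, read 9.47 and 9.34 with WT, 7.0 and 7.08 with KO CAF CM and 10.87 and 10.21 without stimulation. Dgka differed by 2.37 ± 0.24 (adjusted p = 0.00074). Both genes were lowered by each medium, with all not stimulated arrays above all WT arrays and these above all KO arrays, and the fall from not stimulated macrophages was -3.28 ± 0.19, adjusted p = 7.4e-07 for Nfix with KO CAF CM against -0.88 ± 0.19, adjusted p = 0.015 with WT CAF CM.

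Other genes were at the not stimulated level with WT CAF CM and below it with KO CAF CM. Eps8, an actin-capping adaptor of growth factor receptors, read 8.95 and 8.96 with WT, 6.35 and 6.89 with KO CAF CM and 8.56 and 9.18 without stimulation. Eps8 differed by 2.34 ± 0.29 (adjusted p = 0.0022). Mtus1, a microtubule-associated protein, read 8.20 and 8.28 with WT, 6.22 and 6.20 with KO CAF CM and 8.68 and 8.53 without stimulation. Mtus1 differed by 2.03 ± 0.18 (adjusted p = 0.0003). Their WT and not stimulated arrays overlapped or lay close (WT CAF CM minus not stimulated 0.08 ± 0.29, adjusted p = 0.93 for Eps8 and -0.36 ± 0.18, adjusted p = 0.32 for Mtus1), and only the KO arrays stood apart. Deptor, an inhibitor of the mTOR kinase, had a larger difference, 2.44 ± 0.46, adjusted p = 0.024, but its WT arrays lay far apart (9.95 and 8.58). Deptor lost its call without KO CAF CM array 1 (adjusted p = 0.072), KO CAF CM array 2 (adjusted p = 0.16) or WT CAF CM array 1 (adjusted p = 0.15).

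**Figure D3:**
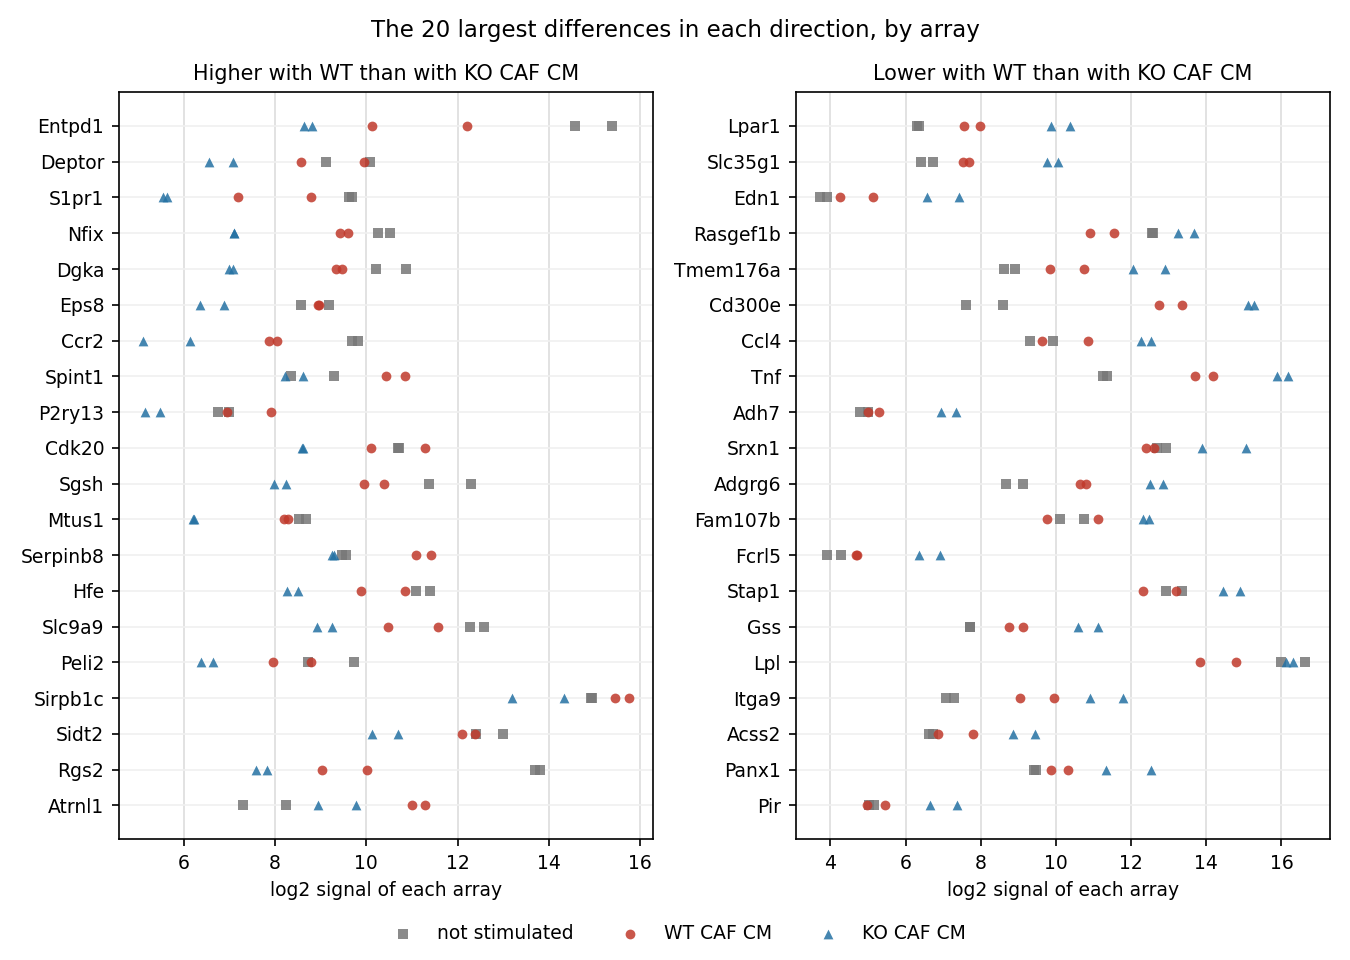
Log2 signals of each array (horizontal) for the 20 genes with the largest differences in each direction outside the published figures, with squares for not stimulated macrophages, circles for WT CAF CM and triangles for KO CAF CM. For Nfix and Dgka the WT arrays lie between the not stimulated and the KO arrays, and for Lpar1 and Slc35g1 they do so from the other side.

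Receptors that steer macrophages towards chemokines, lipids and nucleotides differed between the media in both directions. Of 62 such receptors measured, 8 were higher and 3 lower with WT CAF CM (17.7% called, against 1.44% of all 19505 genes measured), with a median difference of 0.07 over the 62 and of -0.01 over all genes. Without 1 of the CAF CM arrays 5 to 8 were higher and 1 to 3 lower. Ccr2, the receptor for the monocyte attractant Ccl2, read 8.04 and 7.87 with WT, 5.11 and 6.13 with KO CAF CM and 9.82 and 9.68 without stimulation. Ccr2 differed by 2.34 ± 0.29 (adjusted p = 0.0022). S1pr1, a receptor for sphingosine 1-phosphate, read 7.20 and 8.78 with WT, 5.55 and 5.64 with KO CAF CM and 9.63 and 9.69 without stimulation. S1pr1 differed by 2.40 ± 0.38 (adjusted p = 0.011). P2ry13, a receptor for ADP, read 7.91 and 6.94 with WT, 5.16 and 5.47 with KO CAF CM and 7.0 and 6.76 without stimulation. P2ry13 differed by 2.11 ± 0.41 (adjusted p = 0.031). The KO arrays were the lowest of the 6 for each of the 3 genes, and the WT arrays were below not stimulated for Ccr2 and S1pr1 but not for P2ry13. Lpar6 and Lpar1, both receptors for lysophosphatidic acid, moved in opposite directions. Signals of Lpar6 were 13.32 and 13.04 with WT, 11.50 and 11.61 with KO CAF CM and 14.56 and 14.16 without stimulation. Lpar6 differed by 1.62 ± 0.27 (adjusted p = 0.012). Those of Lpar1 were 7.98 and 7.55 with WT, 10.37 and 9.86 with KO CAF CM and 6.31 and 6.35 without stimulation. Lpar1 differed by -2.35 ± 0.26 (adjusted p = 0.0013). Lpar6 was lowered from the not stimulated level and Lpar1 raised, each more with KO than with WT CAF CM. Cx3cr1, the fractalkine receptor, was dim and read 4.17 and 4.61 with WT, 6.03 and 5.34 with KO CAF CM and 6.17 and 5.97 without stimulation. Cx3cr1 differed by -1.30 ± 0.28 (adjusted p = 0.048). Here the WT arrays were the ones below the not stimulated level. Ccr1, Cxcr4 and P2ry12, which the published figures list, were higher with WT CAF CM as well, by 2.53, 2.57 and 2.96 (adjusted p = 0.005, 0.00037 and 0.00012). Some calls in this group were lost when 1 array was left out. S1pr1 lost its call without KO CAF CM array 1 (adjusted p = 0.072) or KO CAF CM array 2 (adjusted p = 0.063). P2ry13 lost its call without WT CAF CM array 1, either KO CAF CM array or either not stimulated array (adjusted p = 0.051 to 0.21). Lpar6 lost its call without KO CAF CM array 1 (adjusted p = 0.078), KO CAF CM array 2 (adjusted p = 0.063) or WT CAF CM array 1 (adjusted p = 0.087). Cx3cr1 lost its call without either WT CAF CM array, KO CAF CM array 1, either not stimulated array, either IL4 array or either IFNγ array (adjusted p = 0.057 to 0.27).

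**Figure D4:**
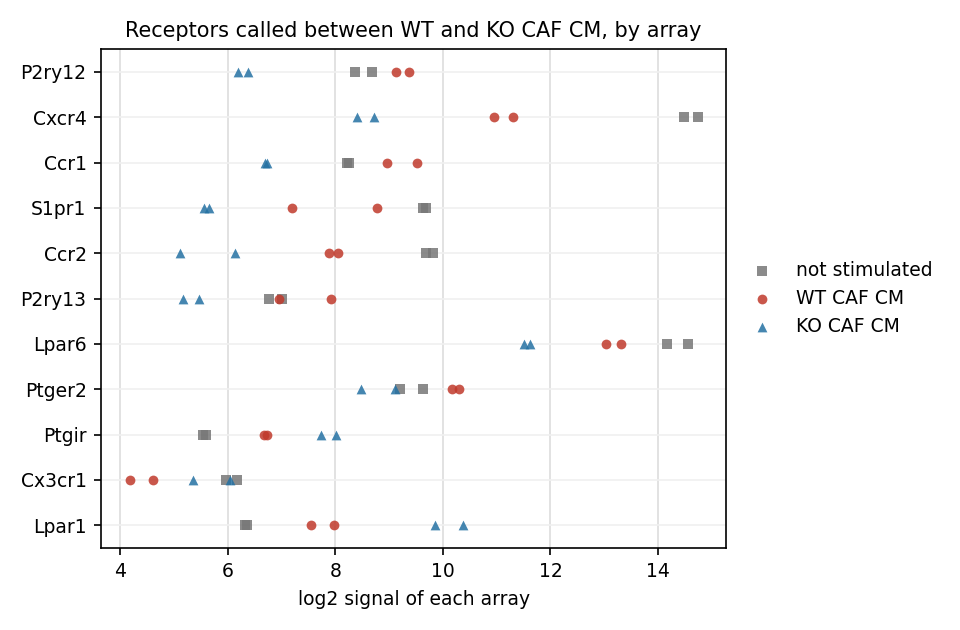
Log2 signals of each array (horizontal) for the 11 receptors of the list that were called between WT and KO CAF CM, with squares for not stimulated macrophages, circles for WT CAF CM and triangles for KO CAF CM. In the 8 upper rows the KO arrays are the lowest, while for Lpar1 and Ptgir they are the highest.

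Entpd1, the surface enzyme (CD39) that removes extracellular ATP and ADP, read 12.20 and 10.12 with WT, 8.81 and 8.64 with KO CAF CM and 15.38 and 14.58 without stimulation. Entpd1 differed by 2.44 ± 0.51 (adjusted p = 0.041). Its level fell with both media, and its WT arrays lay far apart. Mertk, Itgb5 and Havcr2, named from different lists, have roles in the recognition and uptake of dying cells. No list of such genes was counted, so they do not stand for that function. Mertk, a receptor tyrosine kinase, read 11.26 and 11.37 with WT, 9.40 and 9.77 with KO CAF CM and 12.39 and 11.81 without stimulation. Mertk differed by 1.73 ± 0.23 (adjusted p = 0.0032). Itgb5, the integrin subunit beta 5, read 11.27 and 10.96 with WT, 9.65 and 9.28 with KO CAF CM and 13.79 and 13.56 without stimulation. Itgb5 differed by 1.65 ± 0.20 (adjusted p = 0.0023). Havcr2 (TIM-3), a phosphatidylserine receptor and checkpoint molecule, read 9.36 and 9.45 with WT, 7.54 and 7.93 with KO CAF CM and 12.33 and 12.66 without stimulation. Havcr2 differed by 1.67 ± 0.23 (adjusted p = 0.0048). In all 3 the not stimulated arrays were the highest and the KO arrays the lowest. Entpd1 differed by 1.40 without WT CAF CM array 1 and by 3.48 without WT CAF CM array 2. Entpd1 lost its call without WT CAF CM array 1, either KO CAF CM array, either not stimulated array, either IL4 array or either IFNγ array (adjusted p = 0.053 to 0.19). It also lost the call with array weights (adjusted p = 0.061) and with trend and robust moderation (adjusted p = 0.2).

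In Sgsh, Abca1 and Slc36a1 the KO arrays were the lowest of the 6. Sgsh, a lysosomal enzyme that degrades heparan sulphate, read 9.95 and 10.39 with WT, 8.24 and 7.98 with KO CAF CM and 12.29 and 11.38 without stimulation. Sgsh differed by 2.06 ± 0.29 (adjusted p = 0.0048). Abca1, which exports cholesterol, read 13.71 and 14.24 with WT, 12.47 and 12.31 with KO CAF CM and 13.49 and 13.12 without stimulation. Abca1 differed by 1.58 ± 0.23 (adjusted p = 0.0056). Slc36a1, a lysosomal amino acid transporter, read 11.44 and 11.74 with WT, 10.08 and 9.94 with KO CAF CM and 11.26 and 10.99 without stimulation. Slc36a1 differed by 1.58 ± 0.22 (adjusted p = 0.0048). For Abca1 and Slc36a1 the not stimulated arrays fell between the media and were called apart only from KO CAF CM (-0.92 ± 0.23, adjusted p = 0.017 and -1.12 ± 0.22, adjusted p = 0.0047). Of 58 genes of lipid handling, 3 were higher and 1 lower with WT CAF CM (6.9% called, median 0.12), and leaving out 1 CAF CM array left 1 or 2 higher and 0 or 1 lower. The lower one was Lpl, the lipase of lipoprotein triglycerides, which read 14.79 and 13.83 with WT, 16.30 and 16.11 with KO CAF CM and 15.99 and 16.64 without stimulation. Lpl differed by -1.90 ± 0.31 (adjusted p = 0.011). Only WT CAF CM lay below the not stimulated level. Lpl lost its call without KO CAF CM array 1 (adjusted p = 0.078), KO CAF CM array 2 (adjusted p = 0.057) or WT CAF CM array 2 (adjusted p = 0.071).

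Prostaglandin E2 acts on macrophages through receptors that raise cyclic AMP. Of 51 genes of that response measured, 8 were higher and 1 was lower with WT CAF CM (17.6% called, against 1.44% of all genes; median 0.16, against -0.01). Ptger2, one of those receptors, read 10.17 and 10.30 with WT, 9.11 and 8.48 with KO CAF CM and 9.62 and 9.20 without stimulation. Ptger2 differed by 1.44 ± 0.26 (adjusted p = 0.022). Rgs2, an inhibitor of G protein signalling, read 10.02 and 9.02 with WT, 7.59 and 7.83 with KO CAF CM and 13.81 and 13.69 without stimulation. Rgs2 differed by 1.81 ± 0.33 (adjusted p = 0.022). Tnfsf14 (LIGHT), a cytokine of the TNF family, read 7.56 and 7.58 with WT, 6.28 and 6.53 with KO CAF CM and 6.37 and 7.09 without stimulation. Tnfsf14 differed by 1.16 ± 0.25 (adjusted p = 0.044). These genes had different places: neither medium was called apart from not stimulated for Ptger2 and Tnfsf14, while Rgs2 was far below it with both. Fosl2, an AP-1 transcription factor, read 8.59 and 9.06 with WT, 7.96 and 7.62 with KO CAF CM and 8.08 and 7.96 without stimulation. Fosl2 differed by 1.03 ± 0.21 (adjusted p = 0.039). It was the only higher member other than the figure gene Thbs1 that WT CAF CM alone placed above not stimulated macrophages. Hpgd, the enzyme that inactivates prostaglandin E2 and no member of the list, was lowered by both media. It read 7.0 and 7.89 with WT, 5.52 and 5.88 with KO CAF CM and 13.38 and 13.58 without stimulation. Hpgd differed by 1.74 ± 0.28 (adjusted p = 0.01). The count of higher members fell to 1 to 3, and that of lower members was 1 to 3, when 1 of the 4 CAF CM arrays was left out. Ptger2 lost its call without KO CAF CM array 2 (adjusted p = 0.15), WT CAF CM array 1 (adjusted p = 0.083) or WT CAF CM array 2 (adjusted p = 0.12). Rgs2 lost its call without KO CAF CM array 1 (adjusted p = 0.12), KO CAF CM array 2 (adjusted p = 0.083) or WT CAF CM array 1 (adjusted p = 0.13). Tnfsf14 lost its call without either WT CAF CM array, either KO CAF CM array, either IL4 array or either IFNγ array (adjusted p = 0.055 to 0.21). Fosl2 lost its call without WT CAF CM array 2, either KO CAF CM array, either not stimulated array, either IL4 array or either IFNγ array (adjusted p = 0.058 to 0.25). Hpgd lost its call without KO CAF CM array 1 (adjusted p = 0.078) or WT CAF CM array 2 (adjusted p = 0.058).

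WT CAF CM raised 13 of the higher genes above the not stimulated level while KO CAF CM was not called apart from it. Serpinb8, an intracellular inhibitor of serine proteases, read 11.10 and 11.42 with WT, 9.29 and 9.24 with KO CAF CM and 9.47 and 9.55 without stimulation. Serpinb8 differed by 2.0 ± 0.19 (adjusted p = 0.00037). Cd164, a sialomucin of adhesion, read 14.11 and 13.98 with WT, 12.74 and 12.73 with KO CAF CM and 13.12 and 13.16 without stimulation. Cd164 differed by 1.31 ± 0.18 (adjusted p = 0.0051). In both genes the 2 WT arrays stood above the other 4. Ifitm1, an interferon-induced membrane protein, read 9.57 and 10.23 with WT, 8.34 and 8.22 with KO CAF CM and 8.11 and 7.98 without stimulation. Ifitm1 differed by 1.62 ± 0.24 (adjusted p = 0.0072). Spint1, a membrane inhibitor of serine proteases, read 10.44 and 10.84 with WT, 8.62 and 8.22 with KO CAF CM and 9.29 and 8.35 without stimulation. Spint1 differed by 2.22 ± 0.39 (adjusted p = 0.017). Ifitm1 lost its call without KO CAF CM array 2 (adjusted p = 0.058) or WT CAF CM array 2 (adjusted p = 0.054). Spint1 lost its call without KO CAF CM array 1 (adjusted p = 0.061), KO CAF CM array 2 (adjusted p = 0.12) or WT CAF CM array 2 (adjusted p = 0.11). A further 8 genes were raised by both media, more by WT CAF CM, and only Clec4n among them kept its call without any 1 array. Clec4n (Dectin-2), a lectin receptor for fungal mannans, read 14.61 and 14.26 with WT, 12.61 and 12.78 with KO CAF CM and 10.59 and 10.25 without stimulation. Clec4n differed by 1.74 ± 0.20 (adjusted p = 0.0016). Its order was KO above not stimulated and WT above KO, with no overlap. Hif1a, the oxygen-regulated transcription factor, had the same order and read 15.64 and 16.02 with WT, 14.86 and 14.66 with KO CAF CM and 13.10 and 13.08 without stimulation. Hif1a differed by 1.07 ± 0.20 (adjusted p = 0.024). Hif1a lost its call without KO CAF CM array 1 (adjusted p = 0.073), KO CAF CM array 2 (adjusted p = 0.15) or WT CAF CM array 2 (adjusted p = 0.18).

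The transcription factor NRF2 governs oxidant defence. It binds antioxidant response elements and drives the making of glutathione, the reduction of thioredoxin and the detoxification of quinones. Of 57 such genes measured, 7 were lower and 0 higher (12.3% called, against 1.44% of all genes). Of the 57, 45 had a negative difference and the median was -0.45, against 9938 negative among all 19505 genes and a median of -0.01. Against not stimulated macrophages, 24 of the 57 were called higher and 5 lower with KO CAF CM, and 11 higher and 4 lower with WT CAF CM. Of all probe sets, 6.83% were higher and 8.0% lower with KO CAF CM, and 4.08% and 4.47% with WT CAF CM. Without the array in question, the count of lower members was 6 (WT CAF CM array 1), 3 (WT CAF CM array 2), 4 (KO CAF CM array 1) and 6 (KO CAF CM array 2), and the median stayed between -0.61 and -0.26.

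Srxn1, sulfiredoxin, which repairs oxidised peroxiredoxins, read 12.60 and 12.41 with WT, 15.07 and 13.90 with KO CAF CM and 12.70 and 12.93 without stimulation. Srxn1 differed by -1.98 ± 0.31 (adjusted p = 0.01). Gss, the enzyme of the last step of glutathione synthesis, read 9.13 and 8.74 with WT, 11.13 and 10.59 with KO CAF CM and 7.71 and 7.71 without stimulation. Gss differed by -1.92 ± 0.22 (adjusted p = 0.0014). Txnrd1, the reductase of cytosolic thioredoxin, read 14.78 and 14.66 with WT, 15.89 and 15.65 with KO CAF CM and 14.54 and 14.63 without stimulation. Txnrd1 differed by -1.05 ± 0.21 (adjusted p = 0.033). The KO arrays were the highest of the 6 in all 3 genes, and the WT arrays of Srxn1 and Txnrd1 were at the not stimulated level (WT CAF CM minus not stimulated -0.31 ± 0.31, adjusted p = 0.7 and 0.14 ± 0.21, adjusted p = 0.82). Akr1b8, an aldo-keto reductase, read 13.23 and 12.94 with WT, 14.44 and 14.28 with KO CAF CM and 13.67 and 13.88 without stimulation. Akr1b8 differed by -1.27 ± 0.24 (adjusted p = 0.028). Gclc, the catalytic subunit of the first enzyme of glutathione synthesis, and Nqo1 and Gsta3, a quinone reductase and a glutathione transferase, are figure genes and were lower by -2.55, -2.59 and -2.33 (adjusted p = 0.0039, 0.038 and 0.0015). The modifier subunit Gclm (-0.80 ± 0.45, adjusted p = 0.6) and Hmox1, haem oxygenase (-0.31 ± 0.27, adjusted p = 0.8), did not pass the test. Outside the list, Pir, a nuclear iron-binding protein, read 5.46 and 4.97 with WT, 7.38 and 6.65 with KO CAF CM and 5.02 and 5.16 without stimulation. Pir differed by -1.80 ± 0.26 (adjusted p = 0.0061). Adh7, an alcohol dehydrogenase that also oxidises retinol, read 5.0 and 5.28 with WT, 7.34 and 6.93 with KO CAF CM and 5.0 and 4.79 without stimulation. Adh7 differed by -2.0 ± 0.21 (adjusted p = 0.0008). Both were dim, and with WT CAF CM neither was called apart from not stimulated macrophages. Srxn1 lost its call without WT CAF CM array 2 (adjusted p = 0.069). Pir lost its call without WT CAF CM array 2 (adjusted p = 0.054). Nqo1 lost its call without WT CAF CM array 2, KO CAF CM array 1, either not stimulated array or either IFNγ array (adjusted p = 0.062 to 0.24). Txnrd1 lost its call without either WT CAF CM array, either KO CAF CM array or either not stimulated array (adjusted p = 0.053 to 0.17). Akr1b8 lost its call without either WT CAF CM array or either KO CAF CM array (adjusted p = 0.071 to 0.18).

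**Figure D5:**
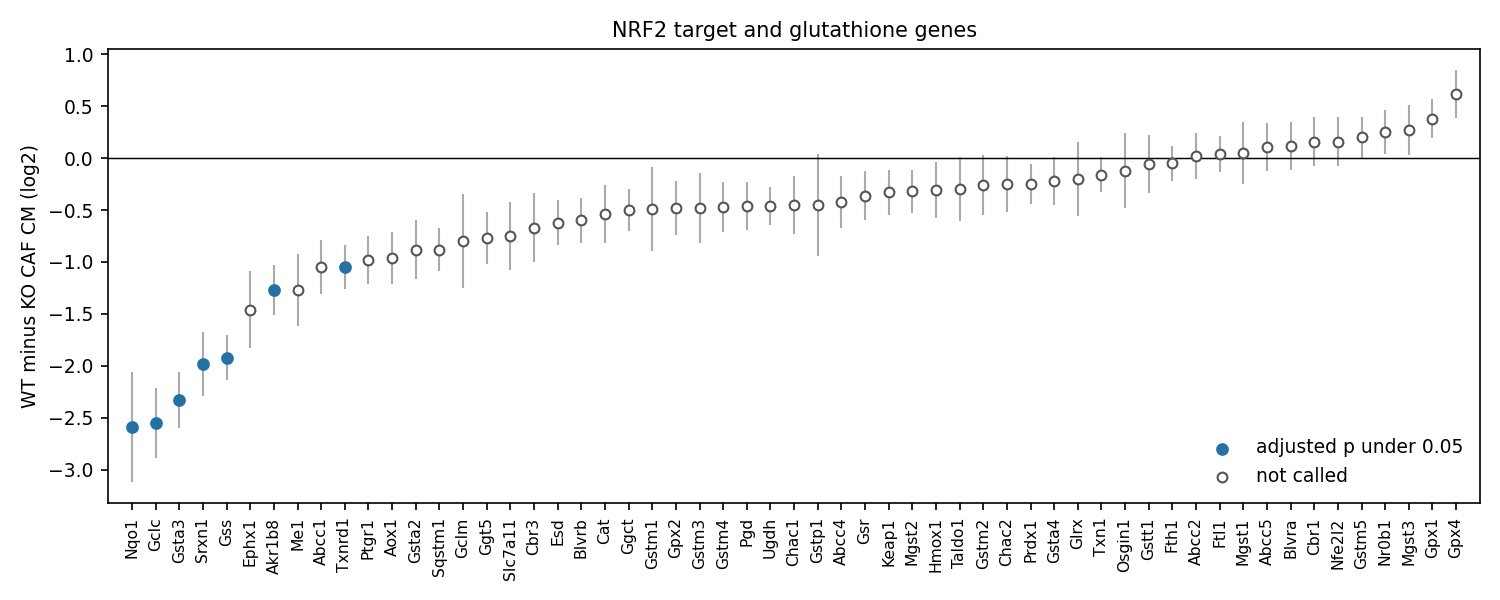
Log2 differences between WT and KO CAF CM (vertical, bars are standard errors of the fit) for 57 genes of NRF2 and glutathione in rising order. The 7 filled points passed the test, all below 0, and 45 of the 57 points lie below 0.

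The core of the antioxidant response element, TGACNNNGC on either strand, was searched in promoter windows of RefSeq (GRCm38.p6, 300 bases that span the start of transcription). It was present in 12.4% of all 32851 windows, in 13.5% of 133 windows of the genes higher with WT CAF CM, in 22.2% of 126 windows of the lower genes and in 24.6% of 65 windows of the NRF2 list. For comparison, the E-box CACGTG was in 7.15% of all windows, 9.77% of those of the higher and 7.94% of those of the lower genes. The cyclic AMP response element TGACGTCA was in 1.79%, 0% and 0.794%. The AP-1 site TGANTCA, which can overlap the antioxidant element, was in 7.81%, 6.77% and 10.3%. In the windows of the NRF2 list the AP-1 site was in 15.4%, the E-box in 1.54% and the cyclic AMP response element in 0%. A match is a description and not a site of binding. The windows of 4 lower genes that hold it are shown because these genes moved together, with the motif in capitals and the sequence read along the gene. The windows of Gss, Akr1b8 and Nqo1 searched held no match, nor did 2 of the 3 windows of Txnrd1.
Srxn1 promoter, chr2:152105274-152105573 (+): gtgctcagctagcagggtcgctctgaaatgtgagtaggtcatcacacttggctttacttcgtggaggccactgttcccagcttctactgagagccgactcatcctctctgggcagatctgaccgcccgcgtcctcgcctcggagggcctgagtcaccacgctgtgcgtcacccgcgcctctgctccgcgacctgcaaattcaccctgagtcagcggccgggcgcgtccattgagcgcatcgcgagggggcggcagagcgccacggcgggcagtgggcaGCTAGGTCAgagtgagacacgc
Txnrd1 promoter, chr10:82858956-82859255 (+): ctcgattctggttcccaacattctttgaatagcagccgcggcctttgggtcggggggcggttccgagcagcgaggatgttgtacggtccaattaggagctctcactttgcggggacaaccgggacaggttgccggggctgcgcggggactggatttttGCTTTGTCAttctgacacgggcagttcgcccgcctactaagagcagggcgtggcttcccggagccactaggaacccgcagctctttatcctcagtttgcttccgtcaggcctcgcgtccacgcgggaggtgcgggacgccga
Gsta3 promoter, chr1:21240335-21240634 (+): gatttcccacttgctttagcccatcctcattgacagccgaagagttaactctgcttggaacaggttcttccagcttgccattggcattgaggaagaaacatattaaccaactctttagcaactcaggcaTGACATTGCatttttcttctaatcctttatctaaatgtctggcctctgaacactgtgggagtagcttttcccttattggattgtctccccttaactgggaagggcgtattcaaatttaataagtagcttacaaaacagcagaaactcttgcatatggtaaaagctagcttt
Pir promoter, chrX:164269181-164269480 (+): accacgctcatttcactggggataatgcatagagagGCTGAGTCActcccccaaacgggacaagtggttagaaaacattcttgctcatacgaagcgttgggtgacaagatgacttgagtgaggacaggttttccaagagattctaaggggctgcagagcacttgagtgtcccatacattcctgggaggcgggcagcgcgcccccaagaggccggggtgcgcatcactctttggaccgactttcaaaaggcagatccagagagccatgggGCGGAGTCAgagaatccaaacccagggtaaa

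The largest difference among the lower genes was that of Lpar1, given above. Slc35g1, a membrane protein of the solute carrier class, read 7.53 and 7.70 with WT, 10.05 and 9.77 with KO CAF CM and 6.41 and 6.73 without stimulation. Slc35g1 differed by -2.30 ± 0.22 (adjusted p = 0.00043). Cd300e, an activating receptor of myeloid cells, read 12.75 and 13.36 with WT, 15.12 and 15.28 with KO CAF CM and 7.61 and 8.60 without stimulation. Cd300e differed by -2.14 ± 0.30 (adjusted p = 0.0048). Adgrg6, an adhesion G protein-coupled receptor, read 10.81 and 10.65 with WT, 12.51 and 12.85 with KO CAF CM and 9.12 and 8.67 without stimulation. Adgrg6 differed by -1.95 ± 0.24 (adjusted p = 0.0022). All 3 were raised by both media, and the rise of Cd300e from not stimulated macrophages was 7.10 ± 0.30, adjusted p = 5.5e-08 with KO CAF CM and 4.95 ± 0.30, adjusted p = 1.3e-06 with WT CAF CM. Fcrl5, an Fc receptor-like protein, read 4.67 and 4.72 with WT, 6.36 and 6.92 with KO CAF CM and 4.28 and 3.90 without stimulation. Fcrl5 differed by -1.94 ± 0.23 (adjusted p = 0.002). Unc5b, a netrin receptor, read 7.37 and 7.59 with WT, 9.10 and 9.30 with KO CAF CM and 7.47 and 7.24 without stimulation. Unc5b differed by -1.72 ± 0.19 (adjusted p = 0.0012). Both were called above not stimulated macrophages with KO CAF CM only. For Fcrl5, which was dim, the WT arrays also lay above the not stimulated arrays (WT CAF CM minus not stimulated 0.60 ± 0.23, adjusted p = 0.17).

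Tnf, Ccl4 and Edn1, which encode secreted mediators, were lower with WT CAF CM, with wide standard errors. The fit took the spread from all 5 conditions, and for Tnf the IL4 arrays lay farthest apart (9.04 and 10.75). Tnf, a cytokine that starts inflammation, read 13.71 and 14.17 with WT, 16.18 and 15.87 with KO CAF CM and 11.25 and 11.36 without stimulation. Tnf differed by -2.08 ± 0.43 (adjusted p = 0.039). Ccl4, a chemokine for T cells and monocytes, read 9.64 and 10.86 with WT, 12.26 and 12.53 with KO CAF CM and 9.31 and 9.93 without stimulation. Ccl4 differed by -2.14 ± 0.43 (adjusted p = 0.033). Edn1, the precursor of the vasoconstrictor endothelin, read 4.25 and 5.13 with WT, 6.56 and 7.42 with KO CAF CM and 3.90 and 3.72 without stimulation. Edn1 differed by -2.30 ± 0.41 (adjusted p = 0.021). Tnf was raised by both media, whereas Ccl4 and Edn1 were called above not stimulated macrophages with KO CAF CM only. Of 34 chemokines, only Ccl4 was lower and only Ccl6 higher (1.74 ± 0.34, adjusted p = 0.03), with a median of 0.07. That is 5.88% called, against 1.44% of all genes. Without WT CAF CM array 2 the counts were 4 lower and 1 higher, and without any 1 of the other 3 CAF CM arrays no chemokine was called. Ccl6 differed by 1.10 without WT CAF CM array 1. The 3 Bcl2a1 genes, which encode inhibitors of cell death, were lower by -1.64 (Bcl2a1a), -1.56 (Bcl2a1b) and -1.61 (Bcl2a1d), but their sequences are near-identical, so they cannot be counted as separate genes. Panx1, a channel that releases ATP, read 10.33 and 9.88 with WT, 12.53 and 11.33 with KO CAF CM and 9.47 and 9.41 without stimulation. Panx1 differed by -1.82 ± 0.35 (adjusted p = 0.027). Tnf lost its call without either WT CAF CM array, either KO CAF CM array, either not stimulated array or either IFNγ array (adjusted p = 0.054 to 0.22). Ccl4 lost its call without KO CAF CM array 1 (adjusted p = 0.11), KO CAF CM array 2 (adjusted p = 0.17) or WT CAF CM array 1 (adjusted p = 0.21). Edn1 lost its call without KO CAF CM array 2 (adjusted p = 0.15) or WT CAF CM array 1 (adjusted p = 0.14). Ccl6 lost its call without WT CAF CM array 1, either KO CAF CM array or either not stimulated array (adjusted p = 0.05 to 0.14). Panx1 lost its call without KO CAF CM array 1 (adjusted p = 0.13), WT CAF CM array 1 (adjusted p = 0.062) or WT CAF CM array 2 (adjusted p = 0.17).

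WT CAF CM lowered 18 of the lower genes below the not stimulated level while KO CAF CM was not called apart from it. Mpzl1, a surface glycoprotein that binds the phosphatase Shp2, read 6.48 and 6.50 with WT, 7.98 and 8.44 with KO CAF CM and 7.58 and 7.60 without stimulation. Mpzl1 differed by -1.72 ± 0.20 (adjusted p = 0.0016). Lrrc20, a leucine-rich repeat protein, read 9.57 and 8.93 with WT, 11.05 and 10.88 with KO CAF CM and 10.49 and 10.63 without stimulation. Lrrc20 differed by -1.72 ± 0.24 (adjusted p = 0.0046). Atf3, a stress-induced transcription factor that restrains inflammatory genes, read 12.48 and 12.82 with WT, 14.09 and 13.98 with KO CAF CM and 14.45 and 14.59 without stimulation. Atf3 differed by -1.38 ± 0.19 (adjusted p = 0.0039). In each of the 3 the WT arrays were the lowest of the 6, and the not stimulated arrays lay between the media for Mpzl1 and Lrrc20. Outside the figures, 2 genes were moved to opposite sides by the media. Rasgef1b, a Ras exchange factor induced in stimulated macrophages, read 11.55 and 10.92 with WT, 13.67 and 13.24 with KO CAF CM and 12.56 and 12.57 without stimulation. Rasgef1b differed by -2.22 ± 0.23 (adjusted p = 0.0008). St3gal5, the sialyltransferase that makes ganglioside GM3, read 11.82 and 11.77 with WT, 13.34 and 13.31 with KO CAF CM and 12.62 and 12.73 without stimulation. St3gal5 differed by -1.53 ± 0.17 (adjusted p = 0.0015). Both rose with KO CAF CM and fell with WT CAF CM, the changes of Rasgef1b being 0.89 ± 0.23, adjusted p = 0.022 and -1.33 ± 0.23, adjusted p = 0.0033. Pdgfb, a platelet-derived growth factor, was lowered by both media, more by WT CAF CM, and read 6.49 and 5.80 with WT, 7.66 and 7.63 with KO CAF CM and 9.88 and 9.62 without stimulation. Pdgfb differed by -1.50 ± 0.24 (adjusted p = 0.01). Its relative Pdgfc was lowered more by KO CAF CM and read 5.85 and 6.25 with WT, 4.69 and 4.35 with KO CAF CM and 9.38 and 9.90 without stimulation. Pdgfc differed by 1.53 ± 0.25 (adjusted p = 0.013). Pdgfb lost its call without KO CAF CM array 1 (adjusted p = 0.066), KO CAF CM array 2 (adjusted p = 0.061) or WT CAF CM array 2 (adjusted p = 0.071). Pdgfc lost its call without KO CAF CM array 2 (adjusted p = 0.1) or WT CAF CM array 2 (adjusted p = 0.099).

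Other lists held calls in both directions, at a higher share than the 1.44% of all genes. They too were written with earlier results known, and their calls include figure genes. Outside the figures lay 7 of 10 calls among immunoglobulin-like receptors, 2 of 8 among costimulators and 5 of 6 among immediate early genes. For solute carriers it was 5 of 7, and for STAT3 genes 5 of 10. Of 60 immunoglobulin-like receptors, 5 were higher and 5 lower (16.7% called, median 0.13). Of 38 costimulators and checkpoint ligands, 3 were higher and 5 lower (21.1%, median 0.05), and 9 of the 38 are figure genes. Of 62 immediate early genes, 3 were higher and 3 lower (9.68%, median -0.04), and of 64 solute carriers 3 and 4 (10.9%, median -0.01). Without 1 of the CAF CM arrays these counts ran from 2 to 4 and 2 to 5 for the immunoglobulin-like receptors and from 1 to 2 and 4 to 6 for the costimulators. They ran from 1 to 3 and 1 to 2 for the immediate early genes, and were 2 and 1 to 3 for the solute carriers. Genes of STAT3, a transcription factor downstream of IL6 and IL10, gave 3 higher and 7 lower of 62 (16.1% called, median 0.12). The 3 higher became 7 without WT CAF CM array 1 and 0 without WT CAF CM array 2 or either KO CAF CM array, and the 7 lower became 3 to 6. Batf, an AP-1 factor that limits other members of its family, was a lower member outside the figures and read 9.50 and 10.14 with WT, 11.20 and 11.24 with KO CAF CM and 7.48 and 6.84 without stimulation. Batf differed by -1.40 ± 0.26 (adjusted p = 0.025). Batf lost its call without KO CAF CM array 1 (adjusted p = 0.1), KO CAF CM array 2 (adjusted p = 0.13) or WT CAF CM array 1 (adjusted p = 0.18).

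Of 62 genes of MYC and of the ribosome production that it drives, 1 was higher and 1, Myc itself, was lower on the arrays. That is 3.23% called, against 1.44% of all genes. Of the 62, 48 had a negative difference, against 9938 of all 19505 genes, and the median of -0.27 lay between -0.30 and -0.18 without 1 of the CAF CM arrays. Against not stimulated macrophages, 24 of the 62 were called higher and 3 lower with KO CAF CM, and 6 higher and 4 lower with WT CAF CM. The shares of all probe sets were 6.83% and 8.0% with KO CAF CM, and 4.08% and 4.47% with WT CAF CM. The higher member, the MYC antagonist Mxi1, read 9.12 and 9.30 with WT, 7.85 and 7.77 with KO CAF CM and 10.94 and 10.72 without stimulation. Mxi1 differed by 1.40 ± 0.22 (adjusted p = 0.0091). Mxi1 lost its call without KO CAF CM array 2 (adjusted p = 0.064) or WT CAF CM array 2 (adjusted p = 0.068). Of 48 TGFβ pathway genes 2 were higher (4.17% called, median 0.11). Of 61 cell cycle genes 1 was higher (1.64% called, median 0.16), which is near the 1.44% of all genes.

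Markers of other cells moved with part of these results. Of 18 monocyte markers measured, 5 were higher with WT CAF CM (Ccr2 and Sirpb1c beside 3 figure genes) and 0 lower. That is 27.8% called, against 1.44% of all genes. The mean signal of the 18 was 9.51 and 9.78 on the WT arrays, 8.52 and 8.53 on the KO arrays and 7.85 and 8.01 without stimulation. Of these markers, 6 stayed below 6 on all 4 CAF CM arrays. Of 17 neutrophil markers 2 were higher (11.8% called), with a mean signal of 7.27 to 7.70 on the WT arrays, 7.12 to 7.28 on the KO arrays and 5.96 to 5.97 without stimulation. None of 20 dendritic cell, 17 lymphocyte and 20 mast cell, basophil and eosinophil markers was called. The part of such cells in the results was not tested.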

How the data were processed

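RNA of macrophages in 5 conditions had been hybridised to Clariom S mouse arrays, 2 per condition. The authors deposited log2 signals normalised by RMA, and their processing notes name RMA and limma without versions. The genome build is not given in the sources used here. limma 3.58.1 (R 4.3.3) was fitted to all 10 arrays with 1 mean per condition (5 residual and 6.43 prior degrees of freedom), with Benjamini-Hochberg adjustment across the 22206 probe sets and a call at an adjusted p of 0.05. One symbol was paired with 19572 of these in GEO's platform annotation and none with 2634. The script was tested on simulated data. Arrays give no read depth, and their number limits the precision. Members and lists were chosen with earlier results of these data known. Named were the 20 largest calls in each direction outside the study's figures, the 5 largest in each place relative to not stimulated macrophages, at most 4 calls from each of 28 lists (at most 2 genes where none was called), all with arrays that did not overlap, and the 5 genes Thbs1, Nrg1, Cd33, Myc and Snai1. Other genes with values were added after their values were seen. Alternatives were a filter on dim probe sets, fewer arrays, the title number as a block, trend and robust moderation, array weights, quantile normalisation, median centring, 1 probe set per gene, fold thresholds and Student's t-test.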

Additional observations from a re-analysis of the deposited data

How the results depend on the processing

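The 302 calls between WT and KO CAF CM, the 238 outside the figures, the 185 of these with KO CAF CM farther from not stimulated macrophages and the 88 calls among list members were 104, 68 and 40 with only the 4 CAF CM arrays (the place relative to not stimulated was 122 with 6 arrays). Leaving out 1 array gave 142 to 269 calls, 93 to 207 outside the figures, 72 to 170 with KO CAF CM farther and 47 to 85 among list members. Trend and robust moderation gave 379 outside the figures and 301 with KO CAF CM farther. An unadjusted p under 0.05 joined to a change of 2-fold or more gave 492 probe sets. Student's t-test on the 4 CAF CM arrays called 1547 at an unadjusted p under 0.05 and 0 after Benjamini-Hochberg, against 2322 unadjusted in limma. The paper names that t-test for its other experiments and not for the arrays, for which the processing notes name limma. The reason for the lower counts was not tested. The labels do not say what the title numbers shared by arrays of different conditions mark. The correlation of their deviations ran from -0.049 to 0.194 (0.0206 for WT with KO CAF CM), over 0.1 for 3 of 10 pairs of conditions. These values do not settle whether arrays of the same number are paired. The main fit did not treat them as paired. With the replicate number as a block there were 406 calls, 335 outside the figures, 111 among list members and 256 with KO CAF CM farther. For 97 named genes, 1308 of 1644 alternative values kept direction and side of the threshold, 333 kept direction only, 1 passed the threshold newly (Kmo, 1.14 without WT CAF CM array 1) and 2 changed sign, both of the uncalled Snai1 (-0.05 without KO CAF CM array 1 and -0.02 without WT CAF CM array 1, in a range up to 0.54). Of the named genes, 55 lost their call with only the 4 CAF CM arrays, 13 with array weights, 4 with quantile normalisation, 3 with median centring and 3 with trend and robust moderation. Among the genes described above, Cx3cr1 lost it with array weights (adjusted p = 0.061), quantile normalisation (0.059) and median centring (0.067). Tnfsf14 lost it with array weights (0.061) and quantile normalisation (0.062), Cd163 (0.054) and Ccl4 (0.05) with array weights, and Tnf with trend and robust moderation (0.11). Outside the 97, Fosl2 lost its call with array weights and Nqo1 with trend and robust moderation. A lone array left in a condition is assumed to vary like the others. No detection call was used, so dim genes such as Adh7, Cd163, Fcrl5 and Pir are given by their signal.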

Other observations

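The arrays of IL4 and IFNγ, which polarise macrophages towards repair and towards defence, placed some of the genes above in another order. These genes were chosen after their values were seen. Clec4n, raised by both CAF media, read 7.0 and 6.80 with IL4 and 7.47 and 7.36 with IFNγ. Both lay below not stimulated macrophages (IL4 -3.52 ± 0.20, adjusted p = 2.3e-06, IFNγ -3.0 ± 0.20, adjusted p = 1.8e-06). Ccr2, lowered by both media, read 9.87 and 10.27 with IL4 and 11.94 and 11.95 with IFNγ, and IFNγ raised it (2.19 ± 0.29, adjusted p = 0.00031). Cd300e, raised by both media, read 5.64 and 5.84 with IL4 and 7.33 and 7.26 with IFNγ, and IL4 lowered it (-2.37 ± 0.30, adjusted p = 0.00086). St3gal5, moved to opposite sides by the media, read 10.78 and 10.56 with IL4 and 13.95 and 14.05 with IFNγ. It was lowered by IL4 (-2.0 ± 0.17, adjusted p = 5.7e-05) and raised by IFNγ (1.32 ± 0.17, adjusted p = 0.00033). Srxn1, at the not stimulated level with WT CAF CM and above it with KO CAF CM, read 11.88 and 12.01 with IL4 and 10.18 and 9.78 with IFNγ and was lowered by IFNγ (-2.84 ± 0.31, adjusted p = 9.1e-05).

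Dcstamp, the fusion receptor of osteoclasts and giant cells, was one of 3 genes outside the figures that both CAF media lowered, more so WT CAF CM. It read 4.80 and 4.70 with WT, 6.80 and 5.81 with KO CAF CM and 7.86 and 7.98 without stimulation (difference -1.56 ± 0.32, adjusted p = 0.039). Dcstamp lost its call without either WT CAF CM array, KO CAF CM array 1, either not stimulated array or either IL4 array (adjusted p = 0.053 to 0.2).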
